A study of Mus musculus with 7 samples.

Results

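C-type lectin receptors are proteins with a C-type lectin fold, many of which stand on macrophages and other myeloid cells. Their messenger RNAs were followed in choroid plexus of mouse embryos that had received red blood cells or saline. The members were all genes of the deposited count table named Clec followed by a number and letters (such as Clec4n or Clec4a1), which gave 33 of 40873 genes. The rule is one of naming only, so it also takes in secreted, endothelial and intracellular proteins. Wild-type (WT) CD-1 embryos, an outbred stock, gave 3 libraries after red blood cells and 4 after saline. Tissue of the lateral ventricles (LV) was pooled for each library and taken on embryonic day E15.5, which was 24 h after the cells or saline were given. The cells given were blood of an E14.5 donor litter, collected in sodium citrate and washed in saline, and controls received saline only. All libraries carry the label batch 1, and the title calls them biological replicates without giving the number of embryos per pool. In a bulk library of this kind, more cells of a type, more RNA per cell and RNA carried in by donor blood cells cannot be told apart.

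The choroid plexus makes cerebrospinal fluid and houses resident macrophages in its stroma and on its surface. Activating C-type lectins of myeloid cells signal through an immunoreceptor tyrosine-based activation motif (ITAM). It lies in their own tail or in an adaptor chain such as FcRγ (Fcer1g) or Tyrobp. The motif recruits the kinase Syk and then the adaptor Card9. Inhibitory members carry an inhibitory motif (ITIM) that recruits phosphatases such as SHP-1 (Ptpn6). Best known as receptors for fungal and mycobacterial sugars, some of these proteins also bind material from dead cells.

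Of the 33 members, 25 lie on chromosome 6, most of them in 2 stretches named here after their best known genes. The Dectin-2 cluster (Clec4a1 to Clec4e, 9 members) spans 122898807 to 123266830 of chromosome 6 on GRCm39. The Dectin-1 cluster (Clec12a to Clec7a, 6 members) spans 129327207 to 129449748. RefSeq promoter windows (GRCm38.p6) matched 26 of 33 members, and the 250 bases upstream of the start were searched on both strands for 5 motifs. These were the core GAGGAA of the myeloid factor PU.1, TGANTCA (AP-1), GGGA and TTCC set 2 bases apart (NF-kB), GAAA and GAAA set 2 bases apart (the interferon response element) and TTGCNNAA (C/EBP). The windows shown are those of the 3 Dectin-2 cluster members with counts whose window held the PU.1 core. The windows of Clec4a2 and Clec4a3 lacked it and are not shown. Clec4n and Clec4a4 had no window and were not searched. For 3 members with 2 windows, only the first was used. Capitals mark the PU.1 core and, in Clec4e, also the C/EBP letters, and no 2 matches overlap in these 3 windows.
Clec4a1, plus strand, chr6:122921598-122921847: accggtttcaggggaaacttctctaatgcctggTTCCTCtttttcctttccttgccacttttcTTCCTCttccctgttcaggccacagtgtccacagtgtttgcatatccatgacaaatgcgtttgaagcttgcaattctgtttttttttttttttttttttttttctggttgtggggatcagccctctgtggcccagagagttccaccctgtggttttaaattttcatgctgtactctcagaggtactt
Clec4d, plus strand, chr6:123261857-123262106: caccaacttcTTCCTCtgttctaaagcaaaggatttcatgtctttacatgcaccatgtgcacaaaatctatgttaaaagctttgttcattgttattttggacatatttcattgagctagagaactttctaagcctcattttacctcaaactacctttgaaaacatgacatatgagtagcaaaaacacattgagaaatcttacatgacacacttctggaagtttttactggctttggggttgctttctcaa
Clec4e, minus strand, chr6:123289872-123290121: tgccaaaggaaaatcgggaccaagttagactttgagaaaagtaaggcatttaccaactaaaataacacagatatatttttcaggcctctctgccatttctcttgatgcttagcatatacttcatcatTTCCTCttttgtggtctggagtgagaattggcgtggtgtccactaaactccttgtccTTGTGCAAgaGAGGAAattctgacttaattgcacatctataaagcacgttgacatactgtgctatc
Among the Dectin-2 cluster, 5 of 7 windows held the PU.1 core (Clec4a1, Clec4b1, Clec4b2, Clec4d and Clec4e), against 13 of 26 windows of all members and 23.3% of all 32851 windows. In the Dectin-1 cluster, 2 of 5 windows held it (Clec12a and Clec7a). The letters therefore occurred both in genes with a large difference between groups and in Clec4b1 and Clec4b2, which had no counts. The NF-kB letters were found in 1 of 26 member windows (Clec2l) and in 1.21% of all windows. AP-1 letters stood in 5 of 26 (6.75% of all windows), interferon element letters in 2 (2.98%), overlapping the PU.1 core in Clec4b1, and C/EBP letters in 4 (9.56%).

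The libraries held 4393860 to 8386928 counts in all and 719 to 1423 counts of members. Markers of the choroid plexus epithelium were at 18020 to 23140 CPM (counts scaled to the library total) summed over 10 genes in every library, with Ttr and Clic6 the most abundant. 3 libraries stood apart in markers of other cells. Red blood cells 2 had 121.6 CPM of 14 neutrophil and monocyte markers, against 13.8 to 32.7 CPM in the others. Red blood cells 3 had the highest summed level of mesenchyme (3156 against 1722 to 2265 CPM over 8 genes) and endothelium (1321 against 888.7 to 1141 CPM over 10 genes). Saline 4 had 1399 CPM of 6 hepatocyte genes, mostly Afp and Alb, against 1.93 to 19.1 CPM elsewhere. The natural killer cell genes Ncr1, Nkg7 and Klrd1 and the dendritic cell gene Xcr1 were at 0 counts in all 7 libraries.

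Counts after red blood cells and after saline were compared with edgeR's quasi-likelihood test over 14869 genes with enough counts, adjusted over all of them. Of the 33 members, 15 had enough counts to be tested, 11 had between 1 and 57 counts in total, and 7 had none (Clec4f, Clec4g, Clec4b1, Clec4b2, Clec2e, Clec2h and Clec2m). With this test 0 of the 15 passed the adjusted threshold of 0.05, which 0.0605% of all genes tested did (0.0404% higher and 0.0202% lower after red blood cells). At an unadjusted p under 0.05 there were 5, with Clec4n, Clec4d, Clec4a1 and Clec4a2 on the higher side and Clec18a on the lower. Over all genes 9.54% reached that level, 5.22% higher and 4.32% lower. DESeq2 called 3 members (Clec4d, Clec4n and Clec18a), limma-voom called 0, or 2 with sample weights (Clec4d and Clec4n). Those fits called 1.41%, 0.0538% and 0.215% of all genes. The median log2 fold change of the 15 was 0.16, against 0.00 over all genes tested. It covers members with values on both sides of 0, and was -0.009 without saline 1.

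**Figure D1:**
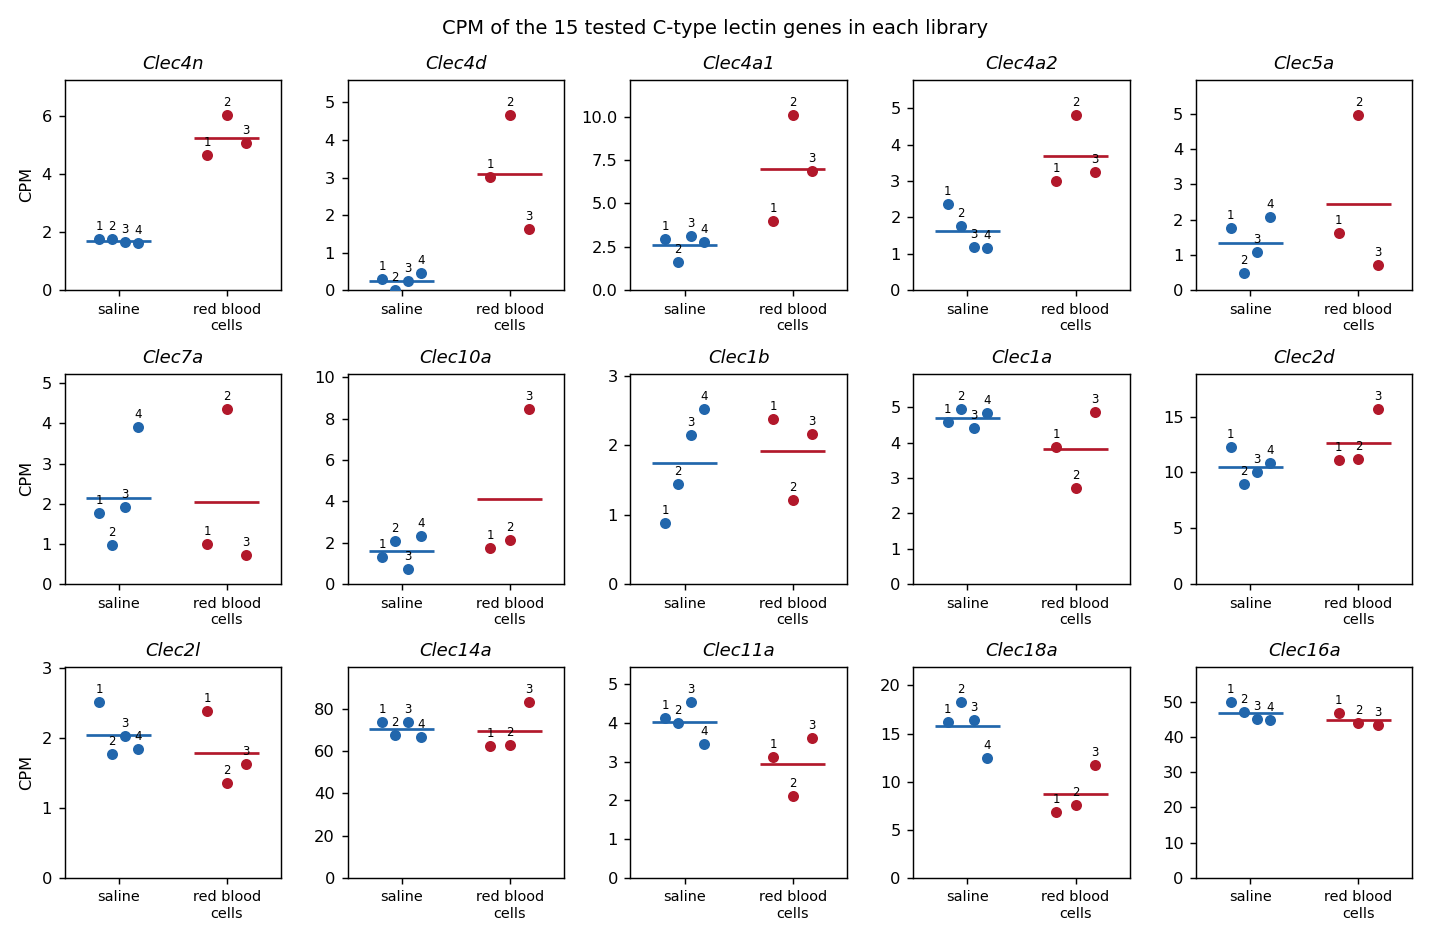
CPM (vertical axis, linear from 0, own scale in each panel) of the 15 tested members in each library, with saline in blue and red blood cells in red; points carry the replicate number and lines are group means. In the Clec4n, Clec4d, Clec4a1 and Clec4a2 panels every red point lies above every blue one, and in the Clec18a panel every red point lies below.

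All 4 members of the Dectin-2 cluster that could be tested had their 3 red blood cell libraries above their 4 saline libraries, as 5.02% of all genes tested did. The largest difference was in Clec4d and the steadiest in Clec4n. The filter asked for about 1.49 CPM in 3 libraries, which Clec4d reached in 3 red blood cell and 0 saline libraries and Clec4a2 in 3 and 2. Both therefore entered the test through the group where they were high, and their separation is no support for the count of 4. Clec4n and Clec4a1 reached that level in all 7 libraries.

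Clec4n encodes Dectin-2, a receptor for the mannans of fungi that pairs with FcRγ. It was measured at 4.63, 6.03 and 5.055 CPM in red blood cells 1 to 3, and at 1.77, 1.76, 1.67 and 1.61 CPM in saline 1 to 4. The saline libraries lay within a narrow band and the lowest red blood cell library stood well above it. The group levels were 5.24 ± 0.716 CPM (SD, n = 3) and 1.70 ± 0.0749 CPM (SD, n = 4). On the log2 scale the difference was 1.61 ± 0.26 (SE), or 3.04-fold, just short of the threshold (adjusted p = 0.0608 in edgeR). Leaving out red blood cells 2 gave 1.49, and leaving out saline 4 gave 1.59. Over all other fits the edgeR, limma or DESeq2 adjusted p lay between 0.00920 and 0.276, with 0.0111 in DESeq2. It was 0.0194 in edgeR without red blood cells 3, a fit that called 283 of 15175 genes tested.

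Clec4d encodes MCL, also called Dectin-3, a partner of Mincle that recognises the mycobacterial glycolipid trehalose dimycolate. It had 24, 31 and 9 counts after red blood cells and 2, 0, 2 and 2 counts after saline. In CPM these were 3.00, 4.67 and 1.62 against 0.295, 0, 0.239 and 0.461. Each red blood cell library lay well above the highest saline library, and red blood cells 3 was the lowest of its group. On the log2 scale the difference was 3.64 ± 0.60 (SE), or 12.5-fold (adjusted p = 0.0608 in edgeR), and 3.24 without red blood cells 2. In the other fits the adjusted p of edgeR, limma or DESeq2 lay between 0.000511 and 0.248, with 0.00309 in DESeq2. It was 0.00552 in edgeR without red blood cells 3, the fit that called 283 of 15175 genes.

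Clec4e, next to Clec4d on the chromosome, encodes Mincle, which binds trehalose dimycolate and a nuclear protein released by dying cells. It had 1, 17 and 1 counts after red blood cells and 0, 0, 0 and 1 after saline, too few to be tested. Red blood cells 2 held 17 of its 20 counts, so the genes of Mincle and its partner differed in how the libraries were spread. The ratio of summed levels was 24.2, with an exact 95% interval from 3.85 to 1007 that covers counting error only, and the groups overlapped (exact two-sided permutation p = 0.171). With 3 against 4 libraries such a p cannot go below 0.0571.

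The Clec4a genes encode the DCIR family, several of which carry an ITIM. Clec4a1 (DCIR4) had 4.01, 10.1 and 6.86 CPM after red blood cells and 2.95, 1.60, 3.10 and 2.76 CPM after saline. The groups did not overlap, although red blood cells 1 lay close to saline 3. On the log2 scale this was a difference of 1.40 ± 0.34 (SE, adjusted p = 0.139 in edgeR), and 1.03 without red blood cells 2. Clec4a2 (DCIR1), an ITIM receptor, had 3.00, 4.82 and 3.25 CPM after red blood cells and 2.36, 1.76, 1.19 and 1.15 CPM after saline. On the log2 scale this was a difference of 1.17 ± 0.34 (SE, adjusted p = 0.217 in edgeR). The inhibitory receptor thus had a difference of the same sign as the activating Clec4n and Clec4d.

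Clec4a3 (DCIR3) missed the count filter, with 6, 22 and 14 counts after red blood cells and 7, 2, 3 and 3 after saline. Red blood cells 1 lay within the saline range, and the ratio of summed levels was 3.57 (exact 95% interval 1.94 to 6.93, counting error only, exact two-sided permutation p = 0.114). Clec4a4 (DCIR2) had 0 counts after red blood cells and 2 after saline. Clec4b1 and Clec4b2, which encode the activating DCAR receptors, had none. Summed over its 9 genes, the cluster had 15.6, 30.95 and 19.7 CPM after red blood cells and 5.63 to 8.47 CPM after saline.

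**Figure D2:**
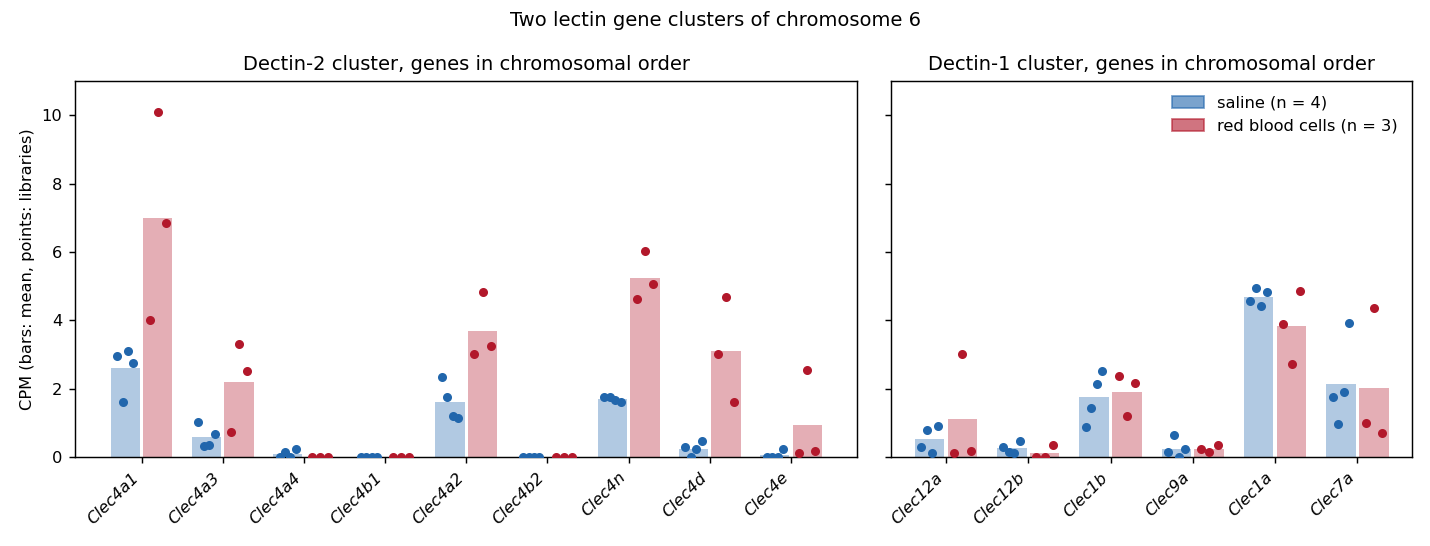
Mean CPM (bars) and single libraries (points) of each gene of the Dectin-2 cluster (left, 9 genes) and the Dectin-1 cluster (right, 6 genes) in chromosomal order, with saline in blue (n = 4) and red blood cells in red (n = 3). Red bars stand above blue ones for Clec4a1, Clec4a3, Clec4a2, Clec4n, Clec4d and Clec4e on the left, while on the right the points of both groups overlap for all 6 genes.

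The Dectin-1 cluster, 6060 kb further along the chromosome, showed no such separation. Its summed level was 7.68, 11.3 and 8.76 CPM after red blood cells and 8.02 to 12.8 CPM after saline. The difference between the clusters was not tested. Clec7a encodes Dectin-1, the β-glucan receptor with an ITAM-like motif in its own tail. It had 1.00, 4.37 and 0.722 CPM after red blood cells and 1.77, 0.960, 1.91 and 3.92 CPM after saline. A single library in each group, red blood cells 2 and saline 4, gave its highest values. On the log2 scale this was a difference of -0.004 ± 0.69 (SE, adjusted p = 0.999 in edgeR), and -0.82 ± 0.52 without those 2 libraries (adjusted p = 0.838 in edgeR).

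Clec12a encodes an ITIM receptor for uric acid crystals. It had 1, 20 and 1 counts after red blood cells and 2, 5, 1 and 4 after saline, so 1 library held most of them (exact two-sided permutation p = 0.743). Clec5a encodes MDL-1, a receptor that signals through Tyrobp, and its gene lies elsewhere on chromosome 6. It was also highest in red blood cells 2, with 1.63, 4.97 and 0.722 CPM after red blood cells and 1.77, 0.480, 1.07 and 2.07 CPM after saline. Its log2 fold change of 0.91 ± 0.63 (SE, adjusted p = 0.738 in edgeR) was -0.09 without red blood cells 2. Clec4e, Clec12a, Clec5a and Clec7a all had their highest value in red blood cells 2, and so did Clec4n, Clec4d, Clec4a1, Clec4a2 and Clec4a3 of the Dectin-2 cluster. That library also had 294 counts of S100a9, 111 of S100a8, 49 of Cxcr2, 31 of Mmp8 and 26 of Retnlg, where no other library had more than 36, 23, 6, 3 and 1. Csf3r and Ccr2 had 109 and 125 counts there, and at most 21 and 29 in any other library. Mpo had 22 counts in red blood cells 2 and 28 in saline 1, against at most 7 elsewhere. Other genes of the neutrophil and monocyte list went the other way. Ngp, Camp and Elane had 19, 7 and 3 counts in saline 1, against 3, 0 and 1 in red blood cells 2. Ltf had 41 in saline 4 against 7, and Prtn3 was lowest in red blood cells 2 (6.18 CPM). The part of these granulocyte and monocyte genes in the lectin values was not tested.

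The other genes of the Dectin-1 cluster belong to further cell types. Clec1b encodes CLEC-2, the platelet receptor for podoplanin that keeps blood and lymph vessels apart during development. Its counts were 19, 8 and 12 after red blood cells and 6, 9, 18 and 11 after saline, differing by 0.16 ± 0.42 on the log2 scale (SE, adjusted p = 0.954 in edgeR). Pf4, of the platelet and megakaryocyte list, had 83, 78 and 93 counts against 64, 21, 55 and 20. Itga2b of that list was at 15.6 ± 1.48 and 16.2 ± 1.35 CPM (SD, n = 3 and n = 4). Gp1bb, below the count filter, was lower in every red blood cell library (0.452 to 0.626 against 0.921 to 1.33 CPM), as were 4.57% of all genes tested. Summed over 9 platelet and megakaryocyte markers the levels were 27.9 to 41.8 CPM and 25.99 to 28.5 CPM, and 0 of 3 tested passed. Only Pf4 had an unadjusted p under 0.05, against 5.22% of all genes tested on the higher side. Clec9a, the receptor of type 1 dendritic cells for actin of dead cells, had 5 counts after red blood cells and 6 after saline. Clec12b had 2 and 6 counts. Clec1a, found on endothelium and known as a receptor for melanin, had 3.88, 2.71 and 4.87 CPM against 4.57, 4.96, 4.41 and 4.84 CPM. Its log2 fold change was -0.30 ± 0.25 (SE, adjusted p = 0.801 in edgeR). Clec12b shares 87 exon bases with Clec1a on the same strand, and Clec1b and Clec9a share 3.23% and 4.02% of their 50-base transcript windows with each other or another gene, so the values of these neighbours are uncertain.

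Clec10a encodes MGL1, a macrophage receptor for galactose-type sugars. It had 14, 14 and 47 counts after red blood cells and 9, 13, 6 and 10 after saline. About 1.49 CPM was reached in 3 red blood cell and 2 saline libraries, so Clec10a entered the test through the group where it was high. Red blood cells 3 alone stood out at 8.49 CPM, against 0.715 to 2.30 CPM in the other 6 libraries. Its log2 fold change of 1.37 ± 0.63 (SE, adjusted p = 0.548 in edgeR) was 0.33 without that library. Red blood cells 3 also had the highest mesenchyme and endothelium sums. The macrophage markers Lyve1, Cd163 and Mrc1 were highest there too (28.0, 14.3 and 156.3 CPM). The sum of 18 macrophage markers was highest in red blood cells 2 (704.6 against 593.6 CPM in red blood cells 3). The part of these genes in the Clec10a value was not tested. Of the 50-base windows of Clec10a 9.02% occur in another gene, mostly Mgl2, whose counts could be mixed with it. Clec4f and Clec4g, lectins of liver macrophages and of liver sinusoids, had 0 counts in all libraries, saline 4 with its hepatocyte transcripts included. At that library's depth a count of 3 corresponds to 0.683 CPM.

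The Clec2 genes encode ligands of NKR-P1 receptors on natural killer cells, and Clec2d, the ligand known as Clr-b, is widely expressed. Clec2d had the highest level per length of the 8 Clec2 genes and was at 11.1, 11.2 and 15.7 CPM after red blood cells and 12.2, 8.96, 10.0 and 10.8 CPM after saline. The groups overlapped, differing by 0.26 ± 0.18 on the log2 scale (SE, adjusted p = 0.732 in edgeR). Clec2i, which encodes Clr-g, had 2, 4 and 6 counts after red blood cells and 0, 0, 1 and 0 after saline. Clec2i had too few counts to be tested. Its groups did not overlap, with red blood cells higher, as in 5.02% of all genes tested. The ratio of summed levels was 15.3 with an exact 95% interval of 2.26 to 654 (counting error only). The exact two-sided permutation p of 0.0571 is the smallest this design can give. Part of Clec2i (4.10% of its 50-base windows) is found in another gene, mostly Clec2g, which had 1 count in all. Klrb1b, the receptor gene for Clr-b, had 2, 4 and 2 counts after red blood cells and 0 in every saline library. Clec2l, a member known from brain, had 2.38, 1.36 and 1.62 CPM against 2.504, 1.76, 2.03 and 1.84 CPM (log2 fold change -0.18 ± 0.34, SE, adjusted p = 0.937 in edgeR). Clec2f had 1 count, in saline 4.

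Among secreted, endothelial and intracellular members, Clec18a was the one with groups that did not overlap. Clec18a encodes a secreted lectin that binds polysaccharides. It had 6.89, 7.54 and 11.7 CPM after red blood cells and 16.2, 18.2, 16.4 and 12.4 CPM after saline. Red blood cells 3 and saline 4 came close to each other while the other 5 libraries were well separated. On the log2 scale the difference was -0.88 ± 0.21 (SE), or 0.542-fold (adjusted p = 0.136 in edgeR). For comparison, 4.57% of all genes tested had every red blood cell library below every saline library. Its sign held in all 17 alternatives (-1.14 to -0.73), with an adjusted p between 0.0108 (edgeR without red blood cells 3, log2 fold change -1.14) and 0.338, and 0.0408 in DESeq2. The fit without red blood cells 3 called 283 of 15175 genes tested. Clec18a lies at 111796128 to 111819056 of chromosome 8 (GRCm39, minus strand). Among epithelial genes, Slc4a5, Aqp1 and Krt18 also had every red blood cell library lower (log2 fold change -0.39 ± 0.07, -0.24 ± 0.06 and -0.14 ± 0.06, SE, adjusted p = 0.0722, 0.141 and 0.499 in edgeR). Of 10 epithelial markers 0 passed and 4 had an unadjusted p under 0.05, each on the lower side, against 4.32% of all genes tested. Log2 fold changes were below 0 for 9 of these markers (median -0.08), as for 7448 of all 14869 genes tested. The part of the epithelial genes in the Clec18a value was not tested.

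Clec14a, an adhesion protein of growing blood vessels, was the member with the most counts and the highest level per length. It had 62.4, 62.9 and 83.0 CPM after red blood cells and 73.7, 67.5, 73.9 and 66.6 CPM after saline, with red blood cells 3 the highest. Its log2 fold change was -0.03 ± 0.10 (SE, adjusted p = 0.971 in edgeR). Endothelial markers, led by Kdr and Cdh5, had a median log2 fold change of -0.03, with 0 of 10 past the threshold or at an unadjusted p under 0.05. Clec16a, an endosomal protein that takes part in the removal of mitochondria, was the steadiest at 44.7 ± 1.79 and 46.6 ± 2.34 CPM (SD, n = 3 and n = 4, log2 fold change -0.06 ± 0.08, SE, adjusted p = 0.893 in edgeR). Clec11a, a growth factor of bone and blood progenitors made by stroma, had 3.13, 2.11 and 3.61 CPM against 4.13, 4.00, 4.53 and 3.45 CPM (log2 fold change -0.47 ± 0.27, SE, adjusted p = 0.659 in edgeR). Clec3b, the plasminogen-binding protein tetranectin, had 16 and 13 counts over the groups, 10 of them in red blood cells 3. Clec3a, a cartilage protein, had 5 and 3 counts. Of 8 mesenchyme markers, led by Col1a2 and Col3a1, 0 passed and 1 (Postn, lower) had an unadjusted p under 0.05. Over all genes tested, 4.32% did on the lower side.

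Per length, the order of members differed between the groups. In RPKM (CPM per kilobase of exon) the saline order began with Clec14a at 15.51 ± 0.864, Clec2d at 6.95 ± 0.912 and Clec18a at 3.61 ± 0.555 (SD, n = 4). Clec11a (2.06 ± 0.227), Clec16a (2.04 ± 0.102), Clec4a1 (1.67 ± 0.438), Clec1b (1.496 ± 0.628), Clec1a (1.44 ± 0.0763), Clec2l (1.42 ± 0.233) and Clec4n (1.37 ± 0.0601) followed, with Clec11a and Clec16a closer to each other than their SD. After red blood cells Clec14a (15.3 ± 2.601) and Clec2d (8.38 ± 1.74) again came first, then Clec4a1 (4.49 ± 1.96) and Clec4n (4.21 ± 0.575), which lay within each other's spread (SD, n = 3). Clec4d was at 2.32 ± 1.14 RPKM after red blood cells and 0.186 ± 0.143 RPKM after saline. The length of Clec16a in the table, 22916 bases, is that of all its annotated exons together, so its value per length may be too low.

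**Figure D3:**
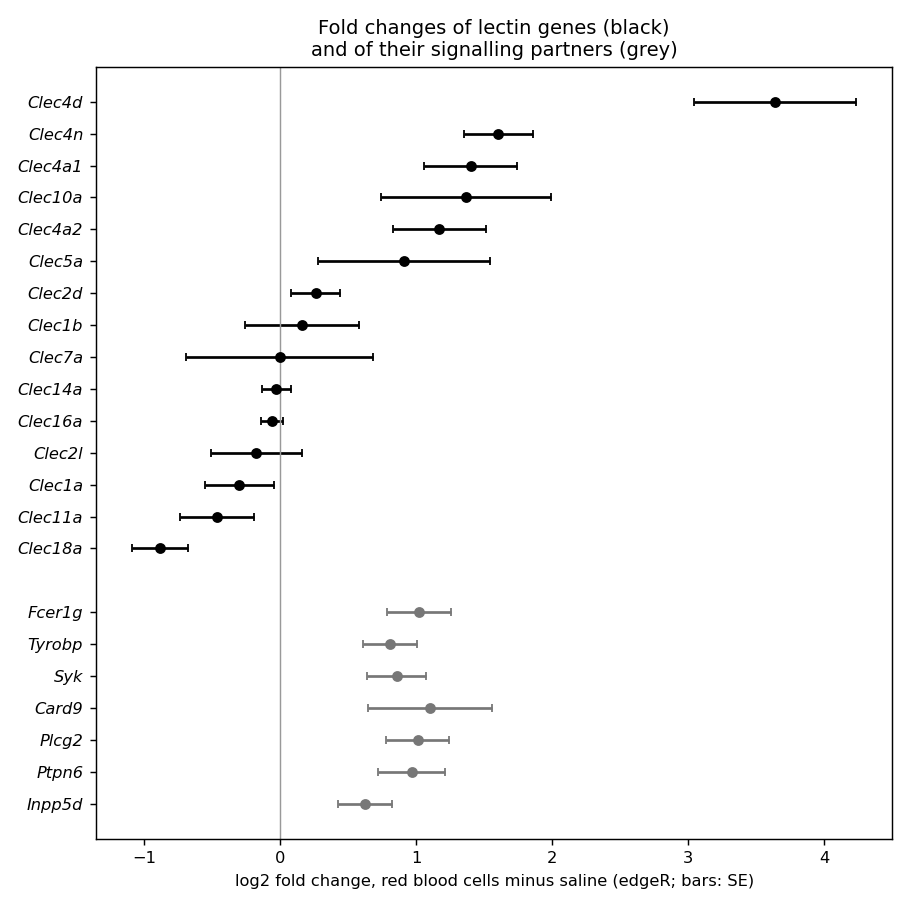
Log2 fold changes (horizontal axis, red blood cells minus saline, with SE) from edgeR for the 15 tested members in black, in order of size, and for 7 signalling partners in grey. Clec4d lies at 3.64 and Clec18a at -0.88, and the 7 partners lie between 0.62 and 1.10.

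Of 20 genes that carry lectin signals into the cell, 18 had log2 fold changes above 0, as did 7421 of all 14869 genes tested. Fcer1g, the FcRγ chain, had 9.77, 18.1 and 11.01 CPM after red blood cells and 7.66, 5.12, 6.56 and 5.99 CPM after saline (log2 fold change 1.02 ± 0.24, SE, adjusted p = 0.136 in edgeR). Tyrobp, the adaptor of Clec5a, had 14.9, 21.2 and 15.3 CPM against 12.1, 7.52, 8.58 and 11.3 CPM (log2 fold change 0.81 ± 0.20, SE, adjusted p = 0.141 in edgeR). In both genes every red blood cell library was above every saline library, as in 5.02% of all genes tested. Log2 fold changes were 0.86 ± 0.22 for Syk, 1.01 ± 0.23 for its substrate Plcg2 and 1.10 ± 0.46 for Card9 (SE, adjusted p = 0.155, 0.136 and 0.443 in edgeR). Card9 was highest in red blood cells 2, with 5.88 CPM against 1.28 to 2.30 CPM in the other libraries. Without that library the log2 values were 0.35 for Card9, 0.69 for Plcg2, 0.76 for Syk, 0.70 for Fcer1g and 0.62 for Tyrobp. Of 20 adaptor and signalling genes, 0 passed the adjusted threshold in edgeR and 12 had an unadjusted p under 0.05, each with the higher level after red blood cells. Over all genes tested, 5.22% had an unadjusted p under 0.05 on the higher side. The median over the list was 0.49 on the log2 scale. Src, a broadly expressed kinase of the list, had a log2 fold change of -0.02 ± 0.08 (SE). Of the inhibitory phosphatases, Ptpn6 had 0.97 ± 0.25 and Inpp5d 0.62 ± 0.20 (adjusted p = 0.172 and 0.268 in edgeR), and Ptpn11, which most cells express, had 0.02 ± 0.06. Leaving out red blood cells 2 gave 0.57 for Ptpn6 and 0.33 for Inpp5d. None of the 3 passed the adjusted threshold.

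Macrophage markers had differences of the same sign as these genes. All 18 had log2 fold changes above 0 (median 0.89), as did 7421 of all 14869 genes tested. The edgeR threshold was passed by 1 (Adgre1, 1.09 ± 0.15, SE, adjusted p = 0.0280 in edgeR), against 0.0404% of all genes on the higher side. An unadjusted p under 0.05 was reached by 14, against 5.22% of all genes on the higher side. The most abundant were Mrc1 and Csf1r (0.74 ± 0.21 and 0.56 ± 0.14, SE, adjusted p = 0.274 and 0.163 in edgeR). Summed over the 18, the level was 451, 704.6 and 593.6 CPM after red blood cells and 377.6, 279.2, 343.4 and 345 CPM after saline, a ratio of means of 1.73. To set the lectins beside these markers, each myeloid member tested was divided by that sum in its library, in CPM per 1000 CPM of markers.

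Relative to the markers, Clec4n stood at 10.3, 8.56 and 8.52 after red blood cells and 4.68, 6.30, 4.86 and 4.67 after saline, a ratio of 1.78. Clec4d stood at 6.66, 6.63 and 2.74 against 0.780, 0, 0.694 and 1.33, a ratio of 7.61. For both the groups did not overlap, with an exact two-sided permutation p of 0.0571 each (0.200 after Benjamini-Hochberg adjustment over 7 members). That p is the smallest this design can give, so no member could have passed the threshold here, adjusted or not. Clec4d, Clec4a2 and Clec10a were among the 7 only through the group where they were high. Their ratios, and the separation of Clec4d, were therefore partly set by the count filter. For Clec4a1 the ratio was 1.52 (exact permutation p = 0.114, adjusted 0.267) and for Clec4a2 1.31 (exact permutation p = 0.286, adjusted 0.400), and both overlapped between groups. Clec10a and Clec5a had ratios of 1.43 and 1.02 (exact permutation p = 0.629 and 1, adjusted 0.733 and 1). Clec7a had a ratio of 0.514, with 2.22, 6.20 and 1.22 after red blood cells and 4.68, 3.44, 5.56 and 11.3 after saline (exact permutation p = 0.286, adjusted 0.400). The marker genes were chosen with earlier results of these data known, and the part of macrophage number in the lectin values was not tested beyond these ratios.

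**Figure D4:**
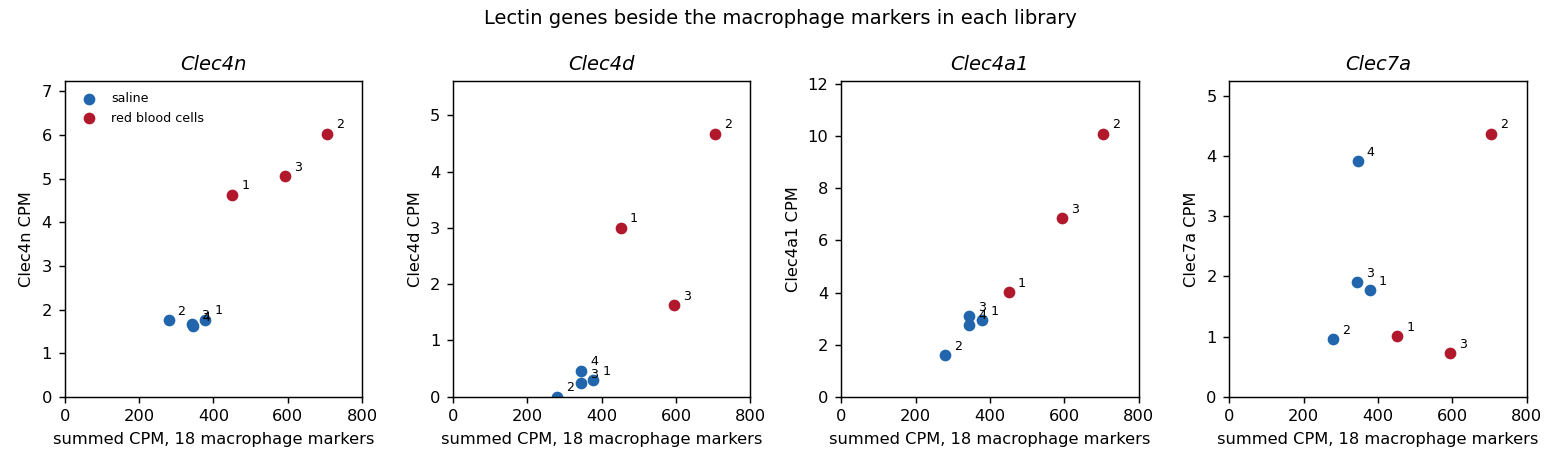
CPM of Clec4n, Clec4d, Clec4a1 and Clec7a (vertical axes) against the summed CPM of 18 macrophage markers (horizontal axes) in each library, with saline in blue, red blood cells in red and the replicate number beside each point. The 3 red blood cell libraries have the highest marker sums and the highest Clec4n, Clec4d and Clec4a1 levels, while the highest Clec7a values belong to red blood cells 2 and saline 4.

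Other cell types the tissue or the donor blood could hold were described by their lists. Of 5 neutrophil and monocyte markers tested, with S100a9 and Prtn3 the most abundant, 0 passed. An unadjusted p under 0.05 was reached by 1 (Csf3r, higher), against 5.22% of all genes tested on the higher side. Dendritic cell markers, led by Zbtb46 and Itgax, had 0 of 3 tested past either threshold. Among natural killer cell markers 1 could be tested, Eomes, at a log2 fold change of -0.77 ± 0.68 (SE, adjusted p = 0.828 in edgeR). The next in abundance, Klrb1c, Gzma and Prf1, had 3, 2 and 3 counts in all. As Ncr1, Nkg7, Klrd1 and Xcr1 had 0 counts, the Eomes and Zbtb46 counts may come from other cells, which was not tested. Erythroid genes, led by Hbb-bs and Hba-a1, summed to 2295 to 2885 CPM after red blood cells and 2189 to 3338 CPM after saline, with 0 of 11 tested past either threshold. Of 6 hepatocyte genes only Afp was tested, and it did not pass.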

How the data were processed

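Poly(A) RNA was sequenced from 7 libraries. The authors deposited one table of raw read counts per gene, with GRCm39 positions and exon lengths. Per the submitters' processing notes, the tools were featureCounts 2.0.6, STAR 2.6.1b and cutadapt 2.5 on GRCm39. The library kit was directional per the labels' protocols. For strand and multi-mapping reads the counting options were not given in the sources used here. Of 40879 genes listed, 6 with broken lines were left out, whose nameless continuation lines held 0.107% of counts. A single count is worth 0.119 to 0.228 CPM.

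Genes kept by filterByExpr (about 1.49 CPM in at least 3 libraries) were tested with edgeR 4.0.16 (quasi-likelihood F test, robust, TMM, no block, two-sided) under R 4.3.3, adjusted by Benjamini-Hochberg. CPM values use TMM-scaled total counts, summed CPM of lists use plain totals except in the ratios to macrophage markers. Exact permutation tests used scipy 1.17.1. Alternatives used DESeq2 1.42.0, limma 3.58.1, other normalizations, filters and left-out libraries.

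On counts simulated for this comparison (14869 genes, changed genes with a mean count of at least 20), edgeR called 43.3% of 1.5-fold, 74.6% of 2-fold and 93.9% of 4-fold changes, with 10 of 151 calls among unchanged genes. Red blood cells against saline had 9 calls, and the shares called when so few genes pass were not tested. Clec4d, Clec4a2, Clec10a, Clec5a, Clec7a, Clec1b and Clec2l had mean counts below 20, so the shares do not cover them. No 2 libraries agreed within sampling noise. The p-values rest on the spread among libraries that the titles call biological replicates.

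Members and lists were chosen with earlier results of these data known. The rule for named genes takes every member, 7 signalling genes, and from other lists the 2 most abundant genes and any past the threshold. Full statistics were set for members with a mean of at least 20 counts. Those of Clec4d, Clec4a2, Clec10a, Clec5a, Clec7a, Clec1b and Clec2l, and further list genes named with values, were added after seeing them. Transcript windows came from GENCODE M21.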

Additional observations from a re-analysis of the deposited data

How the results depend on the processing

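Genes past the threshold numbered 9 with edgeR, 280 with DESeq2 and 32 with limma-voom and sample weights. They numbered 136 without a count filter (0.522% of 26065 tested), 16 without robust estimation, and 40 without red blood cells 2 and saline 4 together. With single libraries left out they numbered between 1 and 283, the 283 (of 15175 tested) being without red blood cells 3. Members past the threshold numbered 0 with edgeR, 3 with DESeq2 and 2 with sample weights. They numbered 4 without a count filter (Clec4a1, Clec4n, Clec4d and Clec18a) and 1 without robust estimation (Clec4n). With single libraries left out between 0 and 3 passed, the 3 being Clec4n, Clec4d and Clec18a without red blood cells 3. The median log2 fold change of the members was 0.077 with at least 10 counts in at least 3 libraries, and between -0.009 and 0.353 with single libraries left out. With a replicate block, 2 genes and 0 members passed, the median was 0.276 and Clec7a had a log2 fold change of 0.14. Same-numbered libraries of the groups did not deviate together (correlations of -0.173 to -0.008), so the numbers were not taken as pairs. Among members the sign turned only where the log2 fold change was small or rested on 1 library. Without single libraries Clec7a ranged from -1.204 to 0.381, Clec5a from -0.091 to 1.305, Clec1b from -0.071 to 0.403 and Clec14a from -0.172 to 0.049, and Clec14a had 0.016 without red blood cells 2 and saline 4 together. Clec4n, Clec4d, Clec4a1, Clec4a2, Clec18a and the remaining 6 tested members kept their sign in every alternative run. Counts limit the 18 members below the filter, where single libraries held at most 22 counts.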

Other observations

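Lectin receptors with other names were described beside the members. Of 33 such genes 10 could be tested, and 0 passed in edgeR. Against 9.54% of all genes tested, an unadjusted p under 0.05 was reached by 3 of the 10. Of these Mrc1, the mannose receptor, had 80.0, 116.8 and 156.3 CPM after red blood cells and 81.3, 63.8, 69.2 and 66.1 CPM after saline (a log2 difference of 0.74 ± 0.21, SE, adjusted p = 0.274 in edgeR). Ly75, the endocytic receptor DEC-205, had 7.64, 8.44 and 14.8 CPM against 6.04, 6.56, 5.01 and 7.83 CPM (0.70 ± 0.26, SE, adjusted p = 0.353 in edgeR). Fcer2a, the low-affinity receptor of immunoglobulin E, had 0.376, 0.754 and 0.903 CPM against 1.77, 1.76, 0.715 and 2.07 CPM (-1.20 ± 0.52, SE, adjusted p = 0.475 in edgeR). In all 3 genes the groups overlapped, and Mrc1 and Ly75 were highest in red blood cells 3, as was Clec10a. The scavenger collectin Colec12, the most abundant of these receptors, was at 326.5 ± 23.8 and 301.8 ± 22.4 CPM (SD, n = 3 and n = 4), and the endothelial lectin-like protein Cd93 at 172 ± 48.4 and 169 ± 5.04 CPM. Genes of the DC-SIGN family were near or at 0, with Cd209f the highest at 0.626 to 1.08 CPM. Asgr2, a subunit of the hepatocyte asialoglycoprotein receptor, had 4.84 CPM in saline 4 and at most 0.361 CPM in the other libraries.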
